A study of Homo sapiens with 18 samples.

Results

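Drug-metabolizing enzymes, efflux transporters and the xenobiotic receptors that regulate them were represented by 43 genes of the 61806 in the count table. The rule matched gene names and used no measured value, but the names were chosen with earlier results of these data known. All 43 were in the table, and 41 passed the filter on low counts and were tested among 19743 genes. CYP2C8 and NAT2 did not pass, with at most 16 and 12 counts in any library. HepG2 is a human hepatoma line whose expression of many drug-metabolizing enzymes is known to be lower than that of hepatocytes. Bulk poly(A) RNA-seq had been made from unedited HepG2 cells and from an APOA4-knockout (APOA4-KO) derivative edited with CRISPR-Cas9, each at 0, 24 and 48 h of hypoxia, with 3 libraries in each of the 6 groups. The methods of the study describe picking single colonies after editing and hypoxia at 1% oxygen, so a difference between the lines cannot be told apart from a difference between 1 clone and its parent. The 0 h cells were the only cells without hypoxia, and no cells were kept without it for 24 or 48 h. A change from 0 h therefore cannot tell hypoxia apart from time in culture.

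Drug metabolism is usually described as an oxidation or hydrolysis step, carried out mainly by cytochrome P450 enzymes, dehydrogenases, esterases and epoxide hydrolase, followed by conjugation with glucuronic acid, sulfate, glutathione, acetyl or methyl groups, and by export through ATP-binding cassette pumps. The liver is the main organ for these reactions. Their genes respond to ligand-activated receptors, among them the aryl hydrocarbon receptor AHR, the pregnane X receptor NR1I2 and the constitutive androstane receptor NR1I3, and to liver factors such as HNF1 and HNF4.

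Total counts were 76481820 to 91604947 per library, and the log2 expression of libraries of the same group correlated across genes at r of at least 0.9655, while libraries of different groups reached 0.9721. All 9 hepatocyte markers were expressed in both lines. At an adjusted p under 0.05, 7, 6 and 8 of them were higher in APOA4-KO at 0, 24 and 48 h, and 2, 3 and 1 lower. With a log2 fold change of at least 1 as well, 2, 3 and 2 were higher and 0 lower. Of the other cell type lists, CFTR, CD3E, CD163, STAB2, COL3A1 and COL1A2 had group means under 1 CPM (read counts divided by library sizes after TMM correction, as edgeR's cpm gives them), but the cholangiocyte markers KRT19, SOX9 and SPP1 had 237 to 945 CPM, CD68 (immune) 28.7 to 69.3 CPM, PDGFRB (fibroblast) 28.6 to 49.5 CPM and PECAM1 and VWF (endothelial) 2.97 to 7.97 CPM. KRT7 (cholangiocyte) had group means of 4.38 to 16.7 CPM, PTPRC (immune) 2.47 to 5.28 CPM and COL1A1 (fibroblast) 0.816 to 3.55 CPM. Those of LUM (fibroblast) and CDH5 (endothelial) reached 1.13 and 1.76 CPM. SPP1 had group means of 870 to 945 CPM in HepG2 and 337 to 437 CPM in APOA4-KO. Among the hepatocyte markers, FGB had 101 to 124 CPM in HepG2 and 267 to 834 CPM in APOA4-KO. TTR had 41.9 to 66.6 CPM in HepG2 and 138 to 162 CPM in APOA4-KO. Of the 2 hepatoma markers, GPC3 differed between the lines by -0.08, -0.21 and 0.34 on the log2 scale at 0, 24 and 48 h, and AFP differed more between the lines, with group means of 130.1 to 186 CPM in HepG2 and 956 to 1493 CPM in APOA4-KO. APOA4 counts remained in the edited line, at 551 to 702 per library, against 702 to 1968 in HepG2, so the RNA count alone does not show the loss of the protein. Of 8 hypoxia genes checked, 7 rose from 0 to 24 h in HepG2 at an adjusted p under 0.05. A log2 fold change of at least 1 was reached as well by 4 of these. By 48 h all 8 genes had risen past both limits in that line. APOA4-KO showed a rise of all 8 genes by the adjusted p at both times, with 7 past both limits each time. Between the lines, all 8 were higher in APOA4-KO at an adjusted p under 0.05 at 0 and 24 h, with 2 and 6 called changed, and at 48 h 5 were higher and 2 lower, with 4 called. The part of clone differences, marker genes, hypoxia genes or APOA4 in the differences between the lines was not tested.

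Changed genes had an adjusted p under 0.05 and a log2 fold change of 1 or more in size. Errors of log2 fold changes are standard errors, with 3 libraries per group. Between the lines at 0 h, 6 of the 41 tested genes were changed, 1 higher and 5 lower in APOA4-KO, beside 4.31% of all genes tested, of which 2.65% were higher and 1.66% lower. At 24 h, 7 were changed, 3 higher and 4 lower, beside 7.77% of all genes, with 4.50% higher and 3.28% lower. At 48 h, 13 were changed, 4 higher and 9 lower, beside 13.6% of all genes, with 6.37% higher and 7.18% lower. At 0, 24 and 48 h the 41 genes had median log2 fold changes of -0.38, -0.22 and -0.62, against -0.01, 0.01 and -0.04 over all genes. In bulk RNA, fewer cells that express a gene and less RNA per cell cannot be told apart.

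Within HepG2, 2 genes fell from 0 to 24 h and 0 rose (3.08% of all genes changed, 2.06% higher and 1.02% lower) and 0 changed at 48 h (2.18% of all genes, 1.41% higher and 0.765% lower), where 16 had an unadjusted p under 0.05 and DESeq2 and limma also called 0. Within APOA4-KO, 6 genes changed at 24 h, 1 higher and 5 lower, beside 5.88% of all genes (3.69% higher, 2.19% lower). At 48 h in APOA4-KO, 6 genes changed, again 1 higher and 5 lower, beside 12.2% of all genes (5.34% higher, 6.85% lower), which is near the share of the 41 genes, 14.6%. The changes at 24 and 48 h share the same 0 h libraries within a line. The change from 0 h was also compared between the lines, as the log2 fold change in APOA4-KO minus that in HepG2. At 24 h, 2 genes were called, both with the higher change in APOA4-KO, beside 2.59% of all genes (1.41% higher, 1.19% lower), and at 48 h 5 were called, 2 higher and 3 lower, beside 7.42% of all genes (3.43% higher, 3.99% lower). Without the fold limit, 11 genes were higher and 9 lower at 24 h (16.8% and 15.4% of all genes), and 11 higher and 16 lower at 48 h (18.6% and 17.8%). In all, 15 genes were changed in at least 1 comparison between the lines, and ALDH1A1, EPHX1, UGT1A1 and ABCB1 in all 3 of them, which is 36.6 and 9.76% of the 41, beside 19.5 and 1.43% of all genes.

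**Figure D1:**
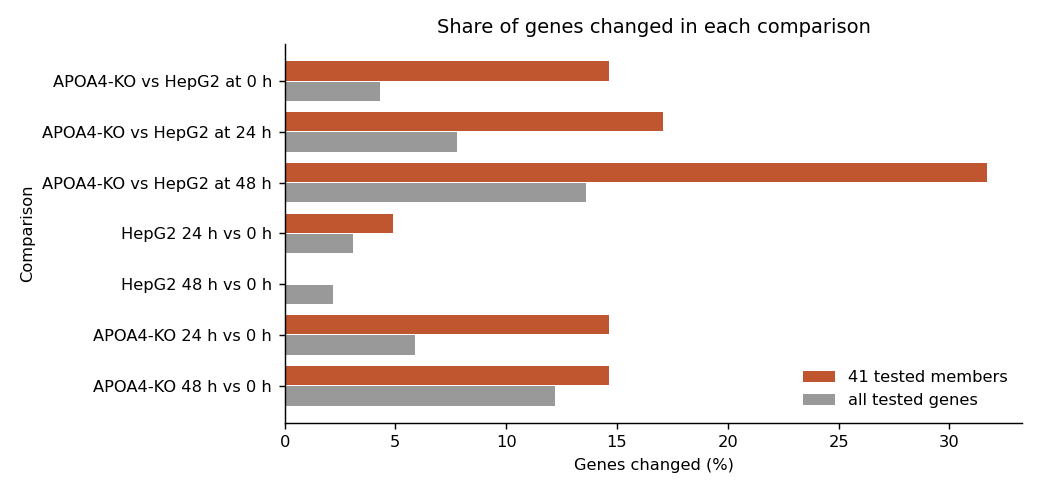
Bars give the percentage of genes changed in each of 7 comparisons, for the 41 tested drug-metabolism genes and for all 19743 tested genes. The bars for the 41 genes stand at 14.6, 17.1 and 31.7% between the lines at 0, 24 and 48 h, beside 4.31, 7.77 and 13.6% for all genes, and at 0.0% beside 2.18% in HepG2 at 48 h.

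Without the fold limit, many more of the 41 genes differed, and lower values outnumbered higher values. Between the lines, 8 genes were higher and 21 lower at an adjusted p under 0.05 at 0 h, beside 12.9% and 17.6% of all genes. The counts were 9 higher and 15 lower at 24 h (23.6% and 24.6% of all genes) and 11 higher and 21 lower at 48 h (23.5% and 27.3%). In HepG2, 5 genes rose and 20 fell at 24 h (11.4% and 18.3%), and 1 rose and 13 fell at 48 h (13.1% and 14.6%). In APOA4-KO, 6 rose and 20 fell at 24 h (21.5% and 22.8%), and 10 rose and 18 fell at 48 h (23.9% and 25.9%).

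**Figure D2:**
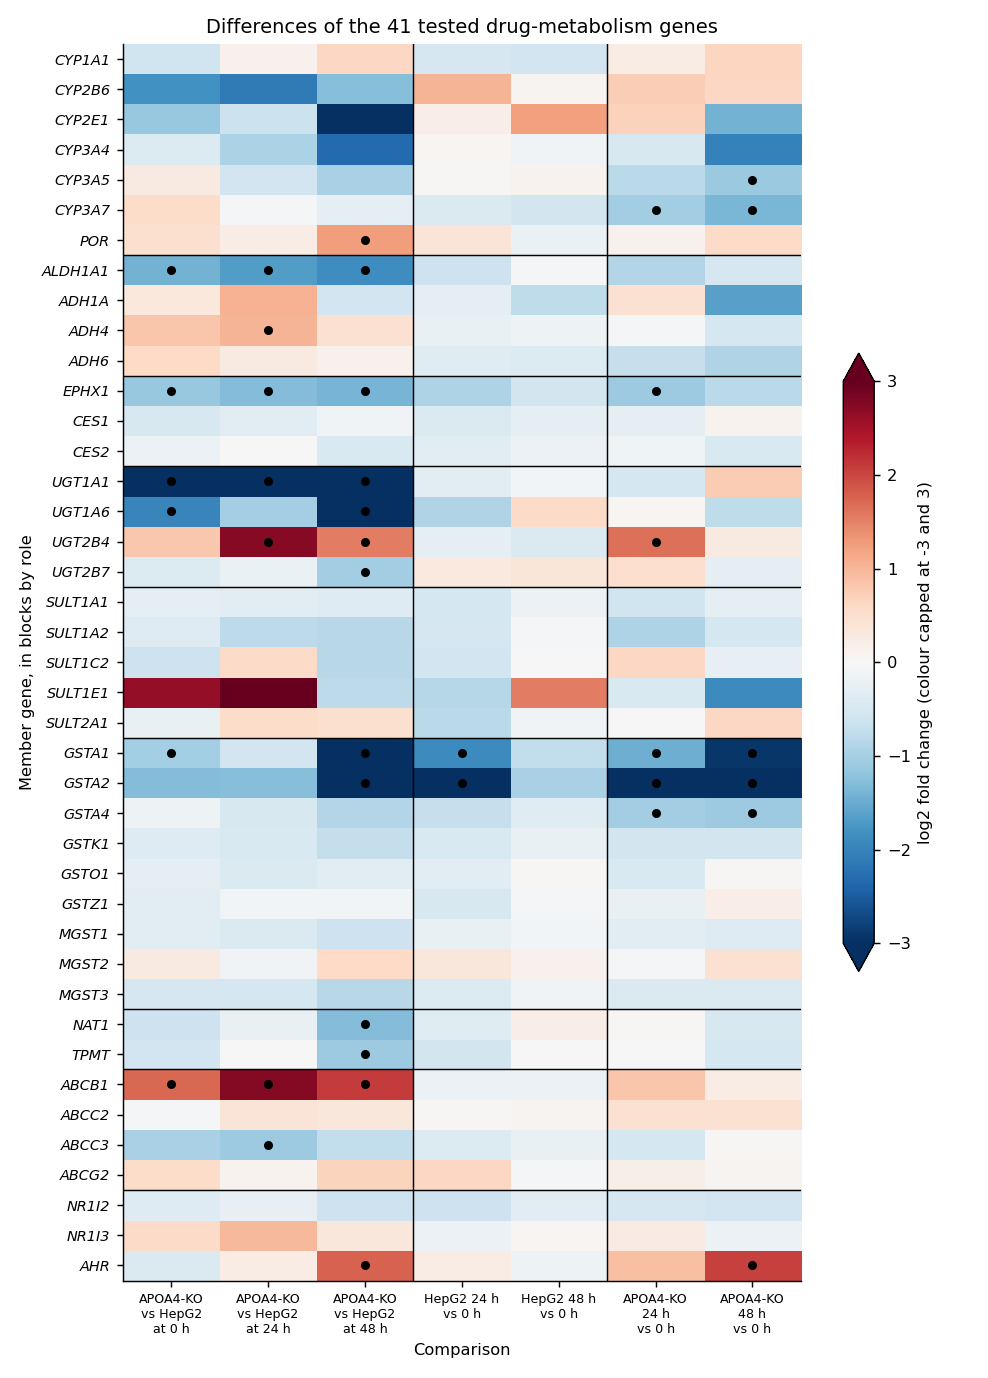
Colours give the log2 fold change of each of the 41 tested genes (vertical axis, in blocks by role) in 7 comparisons (horizontal axis), capped at -3 and 3, and black dots mark genes called changed. Of the cells with a dot, those at or past -3 are UGT1A1 at every time between the lines, UGT1A6 and GSTA1 at 48 h between the lines, and GSTA2 at 48 h between the lines, at 24 h in both lines and at 48 h in APOA4-KO, and ABCB1 is red at every time between the lines. Strong colours without a dot, as for SULT1E1 and CYP2E1, are genes with at most 44 counts in any library that did not pass the test.

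Levels of different genes were compared per length, as the mean FPKM in HepG2 at 0 h. EPHX1 had the highest FPKM of the 43 genes, 223, followed by CES1 at 201 and ALDH1A1 at 170.3 FPKM. The reductase POR stood at 61.2 FPKM, whereas the cytochrome P450 genes were low, with CYP1A1 at 1.99, CYP3A7 at 1.49, CYP3A5 at 0.277 and CYP3A4 at 0.0767 FPKM. CYP2B6, CYP2E1, CYP3A4, ADH1A and SULT1E1, all known as liver enzymes, had at most 20, 30, 36, 20 and 44 counts in any library, and none passed the test in any comparison. For these genes the low counts limited which differences between groups could be detected.

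Among the receptors, AHR (ENSG00000106546, chr7:16916359-17346152 in GENCODE release 29 on GRCh38) showed the largest difference. AHR is a ligand-activated transcription factor that induces CYP1A1 and other enzymes of xenobiotic metabolism. In HepG2, AHR was at 55.3, 59.2 and 57.3 CPM (0 h), 65.2, 68.5 and 68.3 CPM (24 h) and 51.2, 50.2 and 52.4 CPM (48 h). In APOA4-KO it was at 40.4, 42.7 and 44.5 CPM (0 h), 79.1, 78.6 and 79.4 CPM (24 h) and 179.8, 172 and 176 CPM (48 h). The 48 h APOA4-KO libraries lay far above all the others, and at 0 h the APOA4-KO libraries lay below those of HepG2. AHR rose from 0 to 48 h in APOA4-KO by 4.14-fold (log2 fold change 2.05 ± 0.04, adjusted p = 2.53e-18) and at 48 h was 3.43-fold higher than in HepG2 (log2 fold change 1.78 ± 0.04, adjusted p = 1.88e-17). In HepG2 the 48 h change was -0.16 ± 0.04 on the log2 scale (adjusted p = 0.00311), and the 48 h changes of the lines differed by 2.21 ± 0.05 (adjusted p = 7.87e-16). Of the exon bases of AHR, 29.4% also belong to the readthrough gene AC019117.2 on the same strand, so its reads may be divided between both.

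NR1I2, the receptor that induces CYP3A genes, was at 10.5, 9.84 and 8.78 CPM (0 h), 6.12, 6.35 and 6.35 CPM (24 h) and 7.85, 7.42 and 7.72 CPM (48 h) in HepG2. It was at 7.68, 7.83 and 6.88 CPM (0 h), 4.92, 4.94 and 5.90 CPM (24 h) and 4.65, 5.999 and 4.34 CPM (48 h) in APOA4-KO. No change reached the fold limit, but NR1I2 fell from 0 h at an adjusted p under 0.05 at both times in both lines, by 0.63 and 0.34 on the log2 scale in HepG2 and by 0.51 and 0.58 in APOA4-KO (adjusted p = 3.22e-04, 0.0341, 0.00138 and 3.92e-04). NR1I3, the receptor known for inducing CYP2B6, was at 0.320, 0.641 and 1.00 CPM (0 h), 0.494, 0.461 and 0.787 CPM (24 h) and 0.819, 0.593 and 0.629 CPM (48 h) in HepG2. It was at 0.896, 1.16 and 0.875 CPM (0 h), 1.04, 1.25 and 1.16 CPM (24 h) and 0.888, 1.04 and 0.640 CPM (48 h) in APOA4-KO, and it passed the test only at 24 h between the lines (log2 fold change 0.98 ± 0.36, adjusted p = 0.0285), where all APOA4-KO libraries lay above those of HepG2.

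**Figure D3:**
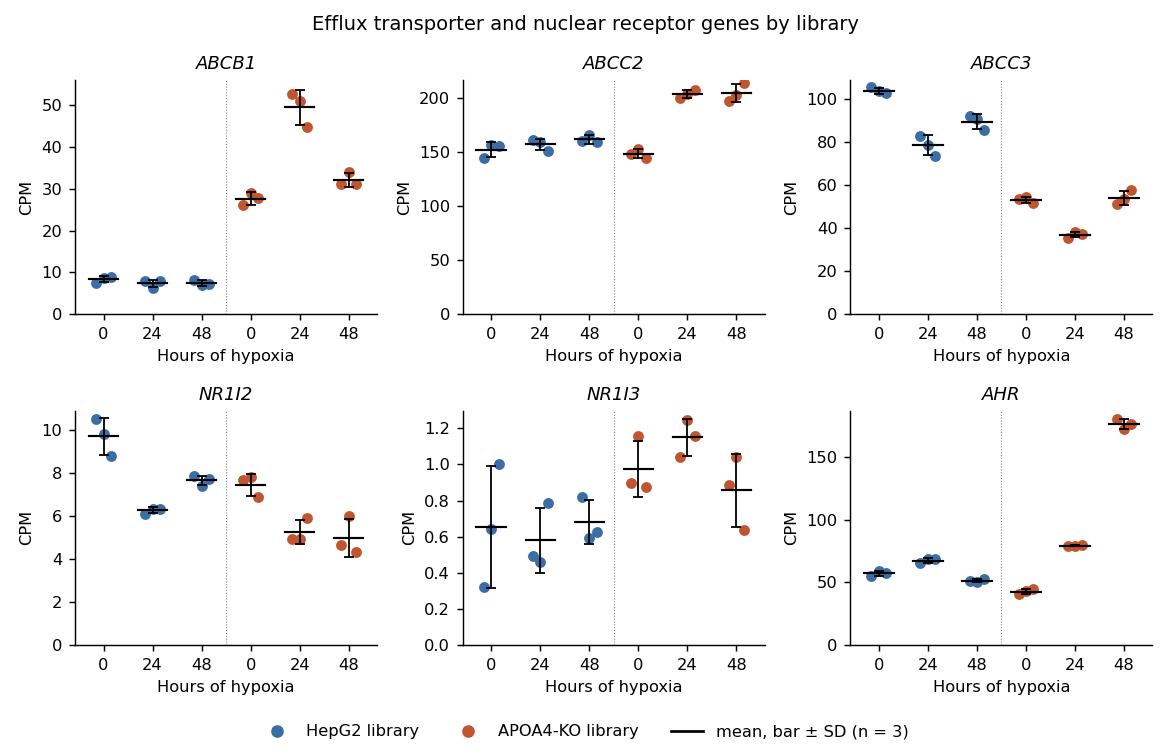
Each point is 1 library, with CPM on the vertical axis, the 6 groups on the horizontal axis and bars for the mean and SD of 3 libraries, for 3 transporters and 3 receptors. AHR stands at 172 to 180 CPM in the 48 h APOA4-KO libraries and below 80 CPM in every other library, and ABCB1 is above 25 CPM in each APOA4-KO library and below 10 CPM in each HepG2 library.

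Promoter sequences are shown for the 5 genes of the AHR, UGT1A1, GSTA and CYP1A1 results, as the 250 bases before the transcription start, read from RefSeq on GRCh38.p14. Of the 43 genes, 34 had an entry, with 47 windows that ran from 250 bases before to 50 bases after a start. Capitals mark matches on either strand to 4 short cores. These were GCGTG, a core bound by AHR, and ACGTG, a core bound by hypoxia-inducible factors. Also marked were TGACNNNGC, the core of the antioxidant response element, and GTTAAT, a recognition core of HNF1. CACGTG holds ACGTG on both strands. The AHR window spans chr7:17298402-17298651, plus strand, that of UGT1A1 chr2:233760020-233760269, plus strand, that of GSTA1 chr6:52803817-52804066, minus strand, that of GSTA2 chr6:52763476-52763725, minus strand and that of CYP1A1 chr15:74725529-74725778, minus strand.
AHR: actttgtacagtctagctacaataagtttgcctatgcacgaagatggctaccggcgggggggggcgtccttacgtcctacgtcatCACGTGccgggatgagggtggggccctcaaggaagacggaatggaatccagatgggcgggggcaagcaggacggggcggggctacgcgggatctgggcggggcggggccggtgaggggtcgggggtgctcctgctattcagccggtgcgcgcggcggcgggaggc
UGT1A1: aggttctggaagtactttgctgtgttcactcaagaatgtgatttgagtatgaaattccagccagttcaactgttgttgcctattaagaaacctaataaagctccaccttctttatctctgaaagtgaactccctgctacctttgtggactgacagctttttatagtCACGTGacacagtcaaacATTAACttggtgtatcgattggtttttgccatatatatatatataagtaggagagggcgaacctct
GSTA1: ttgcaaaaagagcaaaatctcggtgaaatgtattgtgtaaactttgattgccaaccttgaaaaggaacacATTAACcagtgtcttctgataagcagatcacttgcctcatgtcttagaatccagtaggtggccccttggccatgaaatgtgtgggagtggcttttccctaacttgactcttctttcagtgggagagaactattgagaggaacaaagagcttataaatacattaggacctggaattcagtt
GSTA2: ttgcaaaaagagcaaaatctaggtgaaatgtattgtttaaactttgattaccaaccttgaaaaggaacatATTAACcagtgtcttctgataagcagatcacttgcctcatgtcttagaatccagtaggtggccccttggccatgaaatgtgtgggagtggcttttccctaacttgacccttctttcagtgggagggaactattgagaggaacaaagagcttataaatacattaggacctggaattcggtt
CYP1A1: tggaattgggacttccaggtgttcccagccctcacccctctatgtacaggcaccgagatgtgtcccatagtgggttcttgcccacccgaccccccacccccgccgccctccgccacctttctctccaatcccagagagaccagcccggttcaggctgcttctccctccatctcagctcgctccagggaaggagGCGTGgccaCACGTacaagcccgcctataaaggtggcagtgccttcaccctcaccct

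The AHR window held CACGTG, 165 bases before the start, and the UGT1A1 window held CACGTG at 84 bases before the start with the HNF1 core on the opposite strand 66 bases before it. The GSTA1 and GSTA2 windows were identical at 243 of 250 positions and each held the HNF1 core, on the opposite strand, 180 bases before the start. CYP1A1 held GCGTG 57 bases before the start and ACGTG on the opposite strand 48 bases before it. Over all 35116 windows of the table, GCGTG was in 36.5%, ACGTG in 21.4%, TGACNNNGC in 13.4% and GTTAAT in 6.88%. Of the 47 windows of the drug-metabolism genes, 12 held GCGTG (25.5%), 7 ACGTG (14.9%), 8 TGACNNNGC (17.0%) and 10 GTTAAT (21.3%). Some windows of the same gene overlap, so a site can be counted more than once. By gene, 10, 5, 8 and 9 of the 34 held these cores, in the same order. A match describes the sequence only, and no binding was measured here.

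Of the 7 tested genes for cytochrome P450 enzymes and their reductase, CYP3A5 and CYP3A7 were changed over time, both in APOA4-KO, and POR between the lines. CYP1A1 (ENSG00000140465, chr15:74719542-74725610), which oxidizes polycyclic aromatic hydrocarbons and is a known AHR target, was at 6.78, 7.01 and 6.35 CPM (0 h), 4.10, 5.00 and 5.00 CPM (24 h) and 5.10, 4.21 and 4.20 CPM (48 h) in HepG2. It was at 3.76, 4.93 and 4.53 CPM (0 h), 4.88, 5.47 and 5.14 CPM (24 h) and 6.77, 7.57 and 6.47 CPM (48 h) in APOA4-KO. The 0 h HepG2 libraries were the highest of that line, whereas in APOA4-KO the 48 h libraries were the highest and did not overlap those of 0 h. CYP1A1 fell in HepG2 from 0 to 48 h by 0.57 on the log2 scale (adjusted p = 0.00165) and rose in APOA4-KO by 0.65 ± 0.13 (adjusted p = 2.19e-04). These changes differed between the lines by 1.23 ± 0.18 (adjusted p = 1.66e-05).

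CYP3A5 and CYP3A7 belong to the CYP3A family, which oxidizes steroids and many drugs, and CYP3A7 is its fetal form. CYP3A5 was at 2.30, 2.87 and 3.25 CPM (0 h), 3.22, 2.57 and 2.80 CPM (24 h) and 3.06, 3.49 and 2.49 CPM (48 h) in HepG2 and at 4.0, 2.98 and 3.11 CPM (0 h), 2.36, 1.64 and 1.74 CPM (24 h) and 1.25, 1.44 and 1.95 CPM (48 h) in APOA4-KO. CYP3A7 was at 4.90, 6.01 and 4.93 CPM (0 h), 4.27, 3.85 and 3.55 CPM (24 h) and 3.90, 2.43 and 4.52 CPM (48 h) in HepG2 and at 7.90, 7.13 and 8.25 CPM (0 h), 3.50, 4.41 and 3.43 CPM (24 h) and 2.39, 3.72 and 2.93 CPM (48 h) in APOA4-KO. Both genes fell in APOA4-KO, where the 0 h libraries lay above all those of 24 and 48 h. In HepG2 the libraries of CYP3A5 overlapped between times, and those of CYP3A7 were highest at 0 h. CYP3A5 fell 2.18-fold by 48 h in APOA4-KO (log2 fold change -1.12 ± 0.21, adjusted p = 1.99e-04), and its 48 h change differed between the lines (-1.22 ± 0.30, adjusted p = 0.00287). CYP3A7 fell 2.05-fold at 24 h (log2 fold change -1.04 ± 0.20, adjusted p = 2.15e-04) and 2.57-fold at 48 h (log2 fold change -1.36 ± 0.20, adjusted p = 1.12e-05). The calls for CYP3A5 at 48 h and CYP3A7 at 24 h lay near the fold limit and depended on single libraries. CYP3A5 was at -0.96 without APOA4-KO 0 h replicate 1 and at -0.97 without APOA4-KO 48 h replicate 1, and CYP3A7 at -0.97, -0.97 and -0.95 without APOA4-KO 0 h replicate 3, 24 h replicate 1 and 24 h replicate 3. Of the exon bases of CYP3A7, 41.7% overlap the readthrough CYP3A7-CYP3A51P, and the summed CYP3A counts fell by 1.27 on the log2 scale at 48 h in APOA4-KO, with a line difference in that change of -0.99.

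POR passes electrons from NADPH to all microsomal cytochrome P450 enzymes. POR (ENSG00000127948, chr7:75899200-75986855) was at 378, 369 and 365 CPM (0 h), 487, 471 and 489 CPM (24 h) and 322, 319 and 321 CPM (48 h) in HepG2. It was at 530.1, 516 and 502 CPM (0 h), 561.6, 559.9 and 581 CPM (24 h) and 736, 786 and 772 CPM (48 h) in APOA4-KO. At each time every APOA4-KO library lay above every HepG2 library, and at 48 h the difference was 2.38-fold (log2 fold change 1.25 ± 0.03, adjusted p = 1.23e-17). At 0 and 24 h the differences were 0.48 ± 0.03 and 0.23 ± 0.03 on the log2 scale (adjusted p = 5.91e-11 and 2.91e-07).

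ALDH1A1 oxidizes retinal and other aldehydes, and EPHX1 hydrolyzes epoxides that arise from P450 reactions. ALDH1A1 (ENSG00000165092, chr9:72900662-73080442) was at 483, 492 and 478 CPM (0 h), 305, 319.7 and 319 CPM (24 h) and 477, 470.0 and 456 CPM (48 h) in HepG2. It was at 183, 186 and 175 CPM (0 h), 95.5, 99.9 and 100.5 CPM (24 h) and 127, 131 and 125 CPM (48 h) in APOA4-KO. The lines did not overlap at any time, and ALDH1A1 was 2.67-fold lower in APOA4-KO at 0 h (log2 fold change -1.42 ± 0.03, adjusted p = 8.42e-17), 3.19-fold lower at 24 h (log2 fold change -1.67 ± 0.03, adjusted p = 2.96e-18) and 3.66-fold lower at 48 h (log2 fold change -1.87 ± 0.03, adjusted p = 4.33e-19). It fell at 24 h in both lines, by 0.62 on the log2 scale in HepG2 and by 0.88 in APOA4-KO (adjusted p = 6.98e-12 and 2.50e-14).

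EPHX1 (ENSG00000143819, chr1:225810092-225845563) was at 551, 553 and 553 CPM (0 h), 292, 296 and 287 CPM (24 h) and 389.6, 374 and 373 CPM (48 h) in HepG2. It was at 258, 256 and 242 CPM (0 h), 119.9, 116 and 122 CPM (24 h) and 143, 145 and 144 CPM (48 h) in APOA4-KO. In both lines the 24 h libraries were the lowest, and the lines did not overlap at any time. EPHX1 was 2.19-, 2.44- and 2.63-fold lower in APOA4-KO at 0, 24 and 48 h (log2 fold changes -1.13 ± 0.03, -1.29 ± 0.03 and -1.40 ± 0.03, adjusted p = 3.66e-16, 2.82e-17 and 3.72e-18). It fell at 24 h by 0.92 on the log2 scale in HepG2 (adjusted p = 3.82e-15) and 2.11-fold in APOA4-KO (log2 fold change -1.08 ± 0.03, adjusted p = 2.56e-16).

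**Figure D4:**
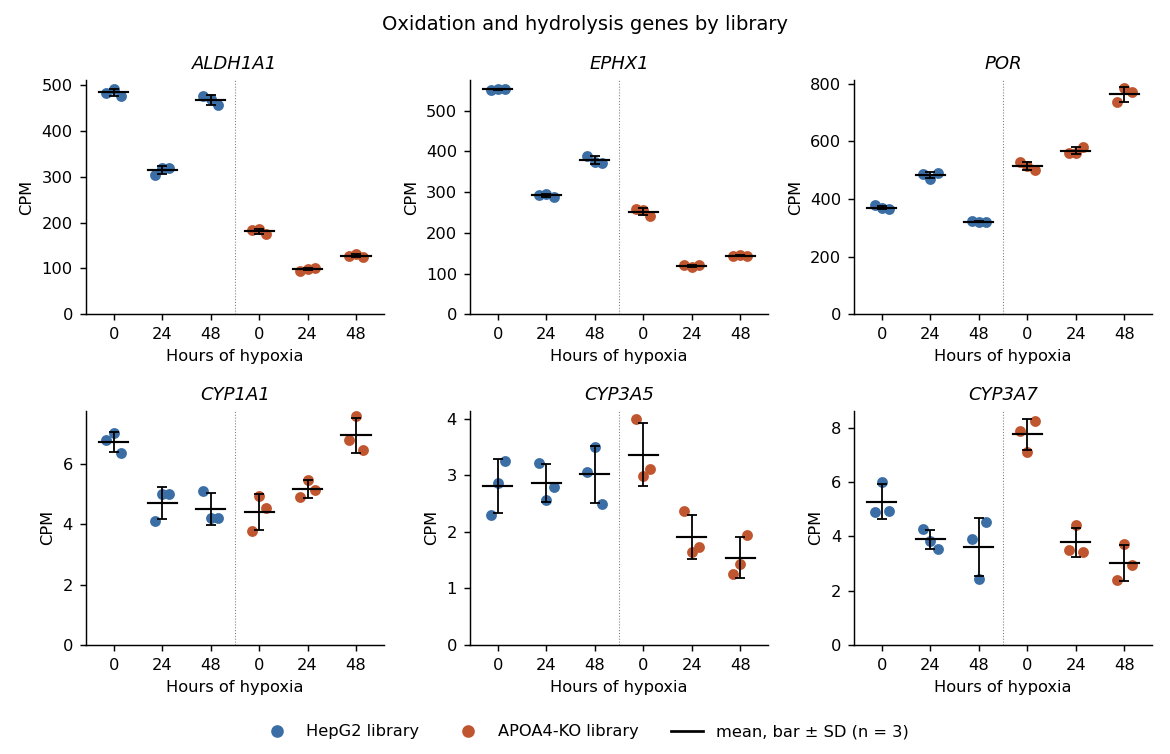
Each point is 1 library, with CPM on the vertical axis, the 6 groups on the horizontal axis and bars for the mean and SD of 3 libraries, for ALDH1A1, EPHX1, POR, CYP1A1, CYP3A5 and CYP3A7. Every APOA4-KO library of ALDH1A1 is at or below 186 CPM and every HepG2 library at or above 305 CPM, and POR is highest in the 48 h APOA4-KO libraries, at 736 to 786 CPM.

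ADH4, an alcohol dehydrogenase of the liver, was at 8.11, 8.65 and 7.45 CPM (0 h), 6.96, 7.30 and 6.37 CPM (24 h) and 7.68, 7.84 and 6.31 CPM (48 h) in HepG2. It was at 14.4, 13.7 and 14.9 CPM (0 h), 14.4, 12.9 and 14.2 CPM (24 h) and 9.84, 9.85 and 10.4 CPM (48 h) in APOA4-KO, above HepG2 at each time with no overlap. The difference at 24 h was 2.01-fold (log2 fold change 1.01 ± 0.09, adjusted p = 1.58e-08), at the fold limit, and was 0.994 without APOA4-KO 24 h replicate 1 and 0.957 without HepG2 24 h replicate 3 on the log2 scale. ADH6, another alcohol dehydrogenase, ranged from 37.7 to 79.7 CPM and fell from 0 h at both times in both lines, by at most 0.89 on the log2 scale. The carboxylesterases CES1 and CES2, which hydrolyze ester drugs, ranged from 338 to 599.9 and from 71.3 to 121 CPM and had no difference of 1 on the log2 scale. CES1 was lower in APOA4-KO at all 3 times, by 0.48, 0.35 and 0.10 on the log2 scale, each at an adjusted p under 0.05, but 24.2% of its 75-base exon sequences also occur in other genes, mostly the pseudogene CES1P1.

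The glucuronosyltransferases held the largest log2 fold change of the 41 tested genes in the 7 comparisons, that of UGT1A1. UGT1A1 (ENSG00000241635, chr2:233760248-233773299) conjugates bilirubin and many drugs with glucuronic acid. In HepG2 it was at 111, 105 and 110.3 CPM (0 h), 83.1, 89.9 and 87.7 CPM (24 h) and 108, 98.8 and 104 CPM (48 h). In APOA4-KO it was at 3.03, 3.38 and 3.72 CPM (0 h), 1.48, 2.03 and 3.50 CPM (24 h) and 6.02, 4.81 and 6.31 CPM (48 h). Every APOA4-KO library was under 7 CPM and every HepG2 library over 80 CPM. UGT1A1 was 32.2-fold lower in APOA4-KO at 0 h (log2 fold change -5.01 ± 0.17, adjusted p = 1.20e-13), 37.2-fold lower at 24 h (log2 fold change -5.22 ± 0.18, adjusted p = 3.43e-14) and 18.1-fold lower at 48 h (log2 fold change -4.18 ± 0.17, adjusted p = 1.28e-13). Between 0 and 48 h it rose in APOA4-KO by 0.76 ± 0.18 on the log2 scale (adjusted p = 0.00129).

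UGT1A genes share all but their starting exon, and 49.9% of the exon bases of UGT1A1 belong to other UGT1A genes on the same strand, so the counting could divide their reads. UGT1A1 had 94.2% of all UGT1A counts in HepG2 at 0 h and 64.9% in APOA4-KO at 0 h. Summed over the 9 UGT1A genes, APOA4-KO was 22.2-, 24.0- and 17.4-fold lower at 0, 24 and 48 h (log2 fold changes -4.47 ± 0.09, -4.58 ± 0.09 and -4.12 ± 0.09). UGT1A4, which glucuronidates amines, had at least 25 counts in each HepG2 library and 0 in all 9 APOA4-KO libraries. Counts of 0 do not exclude a low level. UGT1A3 went the other way at each time, with 34 to 82 counts in APOA4-KO and 0 to 18 in HepG2 at 0 h. At 24 h UGT1A3 had 4 to 13 counts in APOA4-KO and 0 in HepG2, and at 48 h 15 to 33 and 0 to 9.

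UGT1A6, which conjugates planar phenols, was at 3.46, 0.496 and 2.02 CPM (0 h), 1.75, 0.743 and 0.702 CPM (24 h) and 1.89, 3.98 and 3.00 CPM (48 h) in HepG2. It was at 0.530, 0.623 and 0.357 CPM (0 h), 0.522, 0.886 and 0.160 CPM (24 h) and 0.180, 0.488 and 0.222 CPM (48 h) in APOA4-KO. At 48 h no library of the lines overlapped and UGT1A6 was 9.88-fold lower in APOA4-KO (log2 fold change -3.30 ± 0.67, adjusted p = 3.55e-04). At 0 h the libraries overlapped, and the call (log2 fold change -1.98 ± 0.63, adjusted p = 0.0218) was lost without APOA4-KO 0 h replicate 1 (-2.03, adjusted p = 0.0568), without APOA4-KO 0 h replicate 3 (-1.79, adjusted p = 0.0869) and without HepG2 0 h replicate 1 (-1.32, adjusted p = 0.157).

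UGT2B4 and UGT2B7, which conjugate bile acids, steroids and opioids, differed between the lines in opposite directions at 48 h. UGT2B4 was at 1.73, 1.79 and 1.41 CPM (0 h), 1.69, 0.900 and 1.54 CPM (24 h) and 1.55, 0.878 and 1.19 CPM (48 h) in HepG2. It was at 2.75, 3.35 and 2.60 CPM (0 h), 8.33, 10.004 and 8.88 CPM (24 h) and 3.61, 3.73 and 3.11 CPM (48 h) in APOA4-KO, above HepG2 in every library at each time and highest at 24 h. UGT2B4 was 6.60-fold higher in APOA4-KO at 24 h (log2 fold change 2.72 ± 0.23, adjusted p = 7.64e-09) and 2.88-fold higher at 48 h (log2 fold change 1.53 ± 0.22, adjusted p = 1.06e-05). From 0 to 24 h it rose 3.13-fold in APOA4-KO (log2 fold change 1.65 ± 0.22, adjusted p = 3.59e-06), and that change exceeded that of HepG2 by 1.90 ± 0.31 (adjusted p = 8.29e-05).

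UGT2B7 was at 19.1, 16.9 and 18.4 CPM (0 h), 20.7, 23.4 and 21.8 CPM (24 h) and 24.1, 21.9 and 23.3 CPM (48 h) in HepG2. It was at 13.4, 12.96 and 14.7 CPM (0 h), 17.8, 20.6 and 19.5 CPM (24 h) and 11.7, 10.9 and 11.4 CPM (48 h) in APOA4-KO. At 48 h every APOA4-KO library lay below every HepG2 library (log2 fold change -1.03 ± 0.07, adjusted p = 4.05e-10), and without HepG2 48 h replicate 1 the value, -0.9999, fell just short of the fold limit.

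The 5 sulfotransferases, which transfer sulfate to phenols, steroids and bile acids, had no changed gene in any comparison. SULT2A1, the bile acid and steroid sulfotransferase, ranged from 46.4 to 115 CPM and differed between the lines by -0.23, 0.55 and 0.48 on the log2 scale at 0, 24 and 48 h, each at an adjusted p under 0.05. SULT1A1 and SULT1A2, phenol sulfotransferases with shared sequence, were lower in APOA4-KO when summed, by 0.29, 0.41 and 0.47 on the log2 scale at 0, 24 and 48 h. SULT1C2 had 29 to 221 counts per library and passed no test.

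Glutathione transferases conjugate electrophiles with glutathione. All 9 were tested, and 6 were lower and 1 higher in APOA4-KO at 0 h, 6 lower and 0 higher at 24 h, and 7 lower and 1 higher at 48 h at an adjusted p under 0.05. Of all genes, 17.6, 24.6 and 27.3% were lower and 12.9, 23.6 and 23.5% higher by that rule. From 0 to 24 h, 8 of the 9 fell in each line, and 1 rose in HepG2 while 0 rose in APOA4-KO, beside 18.3 and 22.8% of all genes that fell and 11.4 and 21.5% that rose. The changed genes were the alpha class genes GSTA1, GSTA2 and GSTA4, which are neighbours on chromosome 6.

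GSTA1 (ENSG00000243955, chr6:52791664-52803910) was at 76.3, 78.9 and 80.4 CPM (0 h), 19.4, 22.6 and 20.4 CPM (24 h) and 43.8, 48.5 and 49.2 CPM (48 h) in HepG2. In APOA4-KO it was at 39.5, 38.8 and 37.7 CPM (0 h), 12.9, 15.6 and 13.3 CPM (24 h) and 5.36, 4.75 and 5.33 CPM (48 h). In HepG2 the 24 h libraries were the lowest and the 48 h libraries lay between those of 24 and 0 h, whereas in APOA4-KO the 48 h libraries were the lowest. GSTA1 fell 3.77-fold at 24 h in HepG2 (log2 fold change -1.92 ± 0.07, adjusted p = 2.63e-13) and 2.78-fold in APOA4-KO (log2 fold change -1.47 ± 0.07, adjusted p = 4.63e-12). At 48 h it was -0.74 ± 0.07 on the log2 scale from 0 h in HepG2 (adjusted p = 1.74e-07) and -2.91 ± 0.08 in APOA4-KO (adjusted p = 5.33e-16), and these changes differed by -2.18 ± 0.10 (adjusted p = 6.31e-12). GSTA1 was 9.18-fold lower in APOA4-KO at 48 h (log2 fold change -3.20 ± 0.08, adjusted p = 1.51e-16) and 2.03-fold lower at 0 h (log2 fold change -1.02 ± 0.07, adjusted p = 1.58e-09), the latter at the fold limit.

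GSTA2 (ENSG00000244067, chr6:52750089-52763569), whose promoter window nearly matched that of GSTA1, was at 7.15, 7.38 and 7.27 CPM (0 h), 0.546, 0.518 and 1.43 CPM (24 h) and 4.79, 3.06 and 3.33 CPM (48 h) in HepG2. In APOA4-KO it was at 3.33, 3.05 and 2.497 CPM (0 h), 0.119, 0.616 and 0.296 CPM (24 h) and 0, 0.264 and 0.292 CPM (48 h). As for GSTA1, the APOA4-KO libraries at 48 h lay below all HepG2 libraries, while the difference between the lines did not pass the test at 0 or 24 h (adjusted p = 0.069 and 0.0838). GSTA2 fell 8.74-fold at 24 h in HepG2 (log2 fold change -3.13 ± 0.56, adjusted p = 2.46e-04), and 8.63-fold at 24 h and 15.8-fold at 48 h in APOA4-KO (log2 fold changes -3.11 ± 0.59 and -3.98 ± 0.63, adjusted p = 2.06e-04 and 2.92e-05). At 48 h it was 19.9-fold lower in APOA4-KO than in HepG2 (log2 fold change -4.32 ± 0.64, adjusted p = 1.16e-05), and its 48 h change differed between the lines by -3.02 ± 0.80 (adjusted p = 0.00574). GSTA1 and GSTA2 share 13.7% and 12.1% of their 75-base exon sequences with each other, and their summed counts had a line difference of -2.21 in the 48 h change.

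GSTA4, which detoxifies 4-hydroxynonenal, was at 29.3, 29.9 and 28.2 CPM (0 h), 18.4, 16.7 and 19.4 CPM (24 h) and 20.9, 23.7 and 24.0 CPM (48 h) in HepG2. It was at 26.4, 26.7 and 26.0 CPM (0 h), 12.3, 13.8 and 12.7 CPM (24 h) and 12.7, 11.6 and 12.9 CPM (48 h) in APOA4-KO. The 0 h libraries were the highest in both lines. GSTA4 fell 2.05-fold at 24 h (log2 fold change -1.03 ± 0.07, adjusted p = 2.39e-10) and 2.13-fold at 48 h (log2 fold change -1.09 ± 0.07, adjusted p = 9.29e-11) in APOA4-KO, and the 24 h value was -0.979 without APOA4-KO 24 h replicate 1 and -0.998 without replicate 3. The other glutathione transferases, GSTK1, GSTO1, GSTZ1, MGST1, MGST2 and MGST3, had no changed call. MGST2 was the 1 member higher in APOA4-KO at 0 h and 48 h, by 0.28 and 0.60 on the log2 scale.

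**Figure D5:**
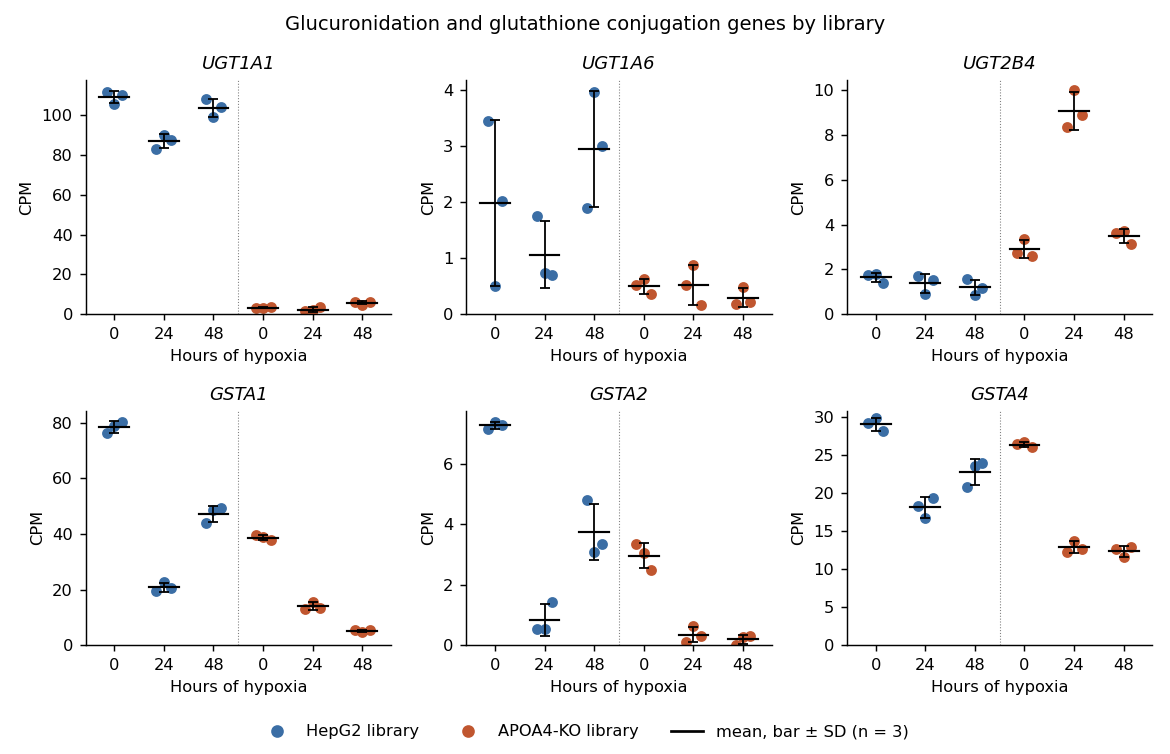
Each point is 1 library, with CPM on the vertical axis, the 6 groups on the horizontal axis and bars for the mean and SD of 3 libraries, for 3 glucuronosyltransferases and 3 glutathione transferases. UGT1A1 is below 7 CPM in every APOA4-KO library and above 80 CPM in every HepG2 library, GSTA1 falls to 4.75 to 5.36 CPM in APOA4-KO at 48 h, and UGT2B4 is highest in APOA4-KO at 24 h.

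NAT1 and TPMT transfer acetyl groups to arylamines and methyl groups to thiopurines. NAT1 was at 1.46, 2.02 and 1.25 CPM (0 h), 1.62, 0.799 and 1.25 CPM (24 h) and 1.54, 1.90 and 2.01 CPM (48 h) in HepG2 and at 0.896, 1.17 and 0.990 CPM (0 h), 1.08, 1.17 and 0.888 CPM (24 h) and 0.750, 0.409 and 1.04 CPM (48 h) in APOA4-KO. At 48 h the lines did not overlap, and NAT1 was 2.47-fold lower in APOA4-KO (log2 fold change -1.31 ± 0.32, adjusted p = 0.00196). TPMT was at 22.5, 23.9 and 21.9 CPM (0 h), 14.4, 16.3 and 16.0 CPM (24 h) and 23.4, 22.4 and 22.8 CPM (48 h) in HepG2. It was at 17.0, 14.5 and 14.4 CPM (0 h), 13.2, 18.2 and 15.2 CPM (24 h) and 11.1, 10.3 and 10.7 CPM (48 h) in APOA4-KO, and it was 2.14-fold lower at 48 h (log2 fold change -1.10 ± 0.09, adjusted p = 8.67e-09), with no overlap. Their 24 h libraries overlapped between the lines.

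Of the 4 efflux transporters, ABCB1 and ABCC3 were changed. ABCB1 (ENSG00000085563, chr7:87503633-87713323) encodes P-glycoprotein, which exports many drugs. In HepG2 it was at 7.54, 8.55 and 8.99 CPM (0 h), 7.96, 6.35 and 7.85 CPM (24 h) and 8.16, 6.97 and 7.21 CPM (48 h). In APOA4-KO it was at 26.0, 28.95 and 27.8 CPM (0 h), 52.7, 50.9 and 44.6 CPM (24 h) and 31.0, 34.1 and 31.1 CPM (48 h). All APOA4-KO libraries lay above all HepG2 libraries, and their 24 h libraries were the highest. ABCB1 was 3.30-fold higher in APOA4-KO at 0 h (log2 fold change 1.72 ± 0.09, adjusted p = 5.22e-11), 6.70-fold higher at 24 h (log2 fold change 2.74 ± 0.09, adjusted p = 3.50e-14) and 4.30-fold higher at 48 h (log2 fold change 2.104 ± 0.09, adjusted p = 6.38e-13). The 24 h change differed between the lines by 1.02 ± 0.13 (adjusted p = 4.48e-06), at the fold limit, and was 0.995, 0.987, 0.9999, 0.984 and 0.923 without APOA4-KO 0 h replicate 1, APOA4-KO 24 h replicate 1, APOA4-KO 24 h replicate 2, HepG2 0 h replicate 3 and HepG2 24 h replicate 2.

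ABCC3, which exports glucuronides and bile acids into blood, was at 106, 104 and 103 CPM (0 h), 83.1, 79.0 and 73.9 CPM (24 h) and 92.4, 91.0 and 85.6 CPM (48 h) in HepG2. It was at 53.6, 54.4 and 51.8 CPM (0 h), 35.6, 38.1 and 37.4 CPM (24 h) and 51.3, 53.5 and 57.8 CPM (48 h) in APOA4-KO. APOA4-KO lay below HepG2 at each time without overlap, and only the 24 h difference reached the fold limit, at 2.12-fold (log2 fold change -1.09 ± 0.05, adjusted p = 1.15e-12). ABCC2, which exports conjugates into bile, ranged from 144.7 to 214 CPM and was higher in APOA4-KO by 0.38 and 0.34 on the log2 scale at 24 and 48 h. ABCG2, another drug exporter, ranged from 9.50 to 18.9 CPM and was higher in APOA4-KO by 0.55 and 0.68 at 0 and 48 h.

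A wider list held 190 other genes of drug metabolism, transport and regulation, apart from those above but from most of the same families. Of these, 147 were tested. The comparisons of the lines at 0, 24 and 48 h changed 19, 18 and 32 of these, with 7, 11 and 13 higher and 12, 7 and 19 lower in APOA4-KO, which is 12.9, 12.2 and 21.8% of the 147, beside 4.31, 7.77 and 13.6% of all genes. Their medians were -0.06, 0.04 and -0.13. Over time, HepG2 had 13 changed genes at 24 h (8.84%, beside 3.08% of all genes) and 4 at 48 h (2.72%, beside 2.18%). APOA4-KO had 10 at 24 h (6.80%, beside 5.88%) and 24 at 48 h (16.3%, beside 12.2%). Among genes of the wider list with a mean of 100 counts or more in the higher group, the largest decreases between the lines at 48 h were in UGT1A9, GNMT, ACSM3, ALDH3A1 and ALDH8A1, with log2 fold changes of -6.20 ± 1.35, -2.54 ± 0.19, -2.53 ± 0.04, -2.48 ± 0.37 and -2.21 ± 0.25. Below that mean, UGT1A4 and UGT1A7 had 0 counts in every APOA4-KO library at 48 h, beside means of 93.7 and 54.3 counts in HepG2. By the same count limit, the largest increases were in ABCB4, CYP4F2, FMO5, SULT1C4 and PPARGC1A, with log2 fold changes of 3.01 ± 0.11, 1.96 ± 0.24, 1.87 ± 0.04, 1.85 ± 0.14 and 1.74 ± 0.07. UGT1A9 is another gene of the shared UGT1A exons and had 0 to 10 counts in APOA4-KO at 48 h, and ABCB4, the phosphatidylcholine pump of bile, lies next to ABCB1.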

How the data were processed

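Libraries were strand-marked poly(A) RNA-seq, and groups came from the sample labels. The authors trimmed reads with fastp and aligned them with HISAT2 to GRCh38.p13, per the study's methods and the submitters' processing notes. The methods name featureCounts for counting and the notes name StringTie, and the strand setting and the handling of reads in shared exons are not given in the sources used here. The deposited table holds whole-number counts per gene and the authors' second table holds FPKM values, scaled by length and library size. Counts of 4, 8 and 12 occurred 2.66 to 3.12, 2.06 to 2.55 and 1.58 to 2.19 times as often as their neighbours.

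edgeR 4.0.16 in R 4.3.3 was run on the counts of all 18 libraries, with filterByExpr, TMM scaling, the quasi-likelihood test and Benjamini-Hochberg adjustment over 19743 genes, and was tested on simulated data. Levels are CPM of TMM-scaled libraries. Alternatives used limma 3.58.1 on log2 FPKM and DESeq2 1.42.0. Whether libraries came from separate cultures is not in the labels, so p-values measure the spread between these samples. Values in every library are given for genes changed in any of 7 comparisons whose higher group averaged 100 counts or more, and for POR and the 3 receptors; of the wider list, the 5 largest non-overlapping differences each way at 48 h under the same count limit. CYP1A1 was named for its line difference at 48 h after its values were seen, and so were UGT1A3, UGT1A4, UGT1A7, MGST2 and the other genes given by range. Genes and lists were chosen with earlier results of these data known. Positions follow GENCODE release 29, and exon sequences were compared as 75-base words with all its transcripts. These words are shorter than the reads the study describes, so the percentages shared are not shares of reads. Promoter windows, 250 bases before to 50 after each start, were from RefSeq (GRCh38.p14). Coordinates are 1-based. Tables and alignments used pandas 2.3.3 and Biopython 1.88.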

Additional observations from a re-analysis of the deposited data

Results flagged for a closer look

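The line difference in the change from 0 h, the log2 fold change in APOA4-KO minus that in HepG2, passed the test and the fold limit for 7 results. At 24 h it was 1.90 for UGT2B4 and 1.02 for ABCB1, both higher in APOA4-KO. At 48 h it was 2.21 for AHR and 1.23 for CYP1A1, both higher in APOA4-KO, and -2.18 for GSTA1, -3.02 for GSTA2 and -1.22 for CYP3A5. In each line the 24 and 48 h changes share the same 0 h libraries. The call was lost in other settings for 4 of the 7. ABCB1, at the fold limit, was at 0.981 with DESeq2 size factors and at 0.825 with limma on log2(FPKM + 1), and was between 0.92 and 1.00 when any one of HepG2 0 h replicate 3, HepG2 24 h replicate 2, APOA4-KO 0 h replicate 1 and APOA4-KO 24 h replicates 1 and 2 was left out. With limma on log2(FPKM + 1), CYP1A1 was at 0.658, CYP3A5 at -0.278 and GSTA2 at -0.823, and CYP3A5 was at -0.995 with summed family counts. With 3 libraries per group, no test for a library far from its group was made.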

How the results depend on the processing

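The counts of changed genes were recomputed under 8 other settings and with each of the 18 libraries left out in turn. For the line difference in the 24 h change, the count of 2 became 1 with DESeq2 median-ratio size factors, 1 with the DESeq2 Wald test and 1 with limma on log2(FPKM + 1). For the 48 h change, the count of 5 became 2 with limma on log2(FPKM + 1), a scale that shrinks low values. The first result rests on ABCB1 at the fold limit, and further causes were not tested. The other counts over the 41 genes stayed within 1.5 times those reported under these 8 settings. Leaving out 1 library gave 5 to 7 changed genes between the lines at 0 h, 7 to 8 at 24 h and 12 to 16 at 48 h, 2 to 2 in HepG2 at 24 h and 0 to 1 at 48 h (1 without HepG2 0 h replicate 2), 4 to 6 and 5 to 7 in APOA4-KO, and 1 to 3 and 5 to 6 for the line differences (1 at 24 h without HepG2 0 h replicate 3, HepG2 24 h replicate 2 or APOA4-KO 0 h replicate 1). With the replicate number as a block the counts were 6, 7, 13, 2, 0, 6, 6, 2 and 5, as without it. The numbers did not pair the samples, since same-numbered samples of different groups correlated at -0.144 to 0.0511 in their deviations from group means and 0 of 18 libraries correlated best with its own number.

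Of 57 results for named genes, 38 kept direction and call in every setting, 19 lost the call in at least 1 and 0 reversed. GSTA1 at 0 h between the lines was -0.994 with DESeq2 size factors, -0.999 with library size alone and -0.991 with only the compared groups. UGT2B7 at 48 h was -0.98 and ADH4 at 24 h 0.998 with DESeq2 size factors. With family counts summed, a setting added after seeing the data, CYP3A7 at 24 h in APOA4-KO was -0.88. Library size alone moved the median of all genes from -0.04 to -0.19 between the lines at 48 h and from -0.07 to -0.22 in APOA4-KO at 48 h, and changed the share of higher calls from 47.0 to 34.0% and from 43.8 to 30.4%. The split of the drug-metabolism genes at 48 h between the lines was then 4 higher and 11 lower. With limma on log2(FPKM + 1), the wider list had 4, 3 and 16 changed genes between the lines at 0, 24 and 48 h, 3 and 0 in HepG2, 3 and 9 in APOA4-KO, and 0 and 4 for the line differences, where the reported counts for the last were 3 and 10. For the 5 tested genes with at most 44 counts in any library, depth limits what could be detected.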

Other observations

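Genes within 500 kb of 4 of the genes were read after their values were seen. Of all genes tested, 2.65% were changed to higher and 1.66% to lower values in APOA4-KO at 0 h, and 6.37% and 7.18% at 48 h. Of 12 tested neighbours of ABCB1, 3 were higher in APOA4-KO at 0 h (ABCB4 2.31, RUNDC3B 1.47 and ADAM22 1.07 on the log2 scale) and none was lower. At 48 h, 2 were higher and 1 was lower, CROT at -1.52. Of 13 tested neighbours of GSTA1, 4 were lower in APOA4-KO at 48 h and 1 was higher, RN7SK at 2.30. The lower ones were GSTA2, ENSG00000216775 at -2.47, FBXO9 at -1.44 and TMEM14A at -1.32. Of the 10 tested neighbours of UGT1A1, the 4 that were lower at 0 h were all UGT1A genes. ATG16L1, DGKD, USP40 and HJURP, outside the UGT1A genes, differed between the lines by at most 0.70 in size on the log2 scale at any time, and a further one, ENSG00000279809, was at 1.15, 1.53 and 0.23 and did not pass the test. Of 7 tested neighbours of AHR, AGR2 alone was called, at -1.02 at 48 h.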
